A study of Mus musculus with 8 samples.

Results

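The neuregulin and ErbB receptor genes were followed through the cell types of the mouse striatum in 8 inbred strains. The set was defined by gene name and holds the ligand genes Nrg1, Nrg2 and Nrg3 and the receptor genes Egfr, Erbb2, Erbb3 and Erbb4, 7 of the 32285 genes in the count matrices, and all 7 had a row in each matrix. Nuclei were isolated from frozen striatum of 12-week-old mice of the classical inbred strains A/J, 129S1/SvImJ, C57BL/6J, NZO/H1LtJ and NOD/ShiLtJ and of the wild-derived strains CAST/EiJ, WSB/EiJ and PWK/PhJ. No treatment, mutation or transgene is named for any mouse. There were 32 mice, 4 per strain, and nuclei of 1 mouse of every strain were mixed in each of 4 batches, with males and females in every batch. RNA and open chromatin were profiled from the same nuclei, and each nucleus was assigned to a strain by its genotype, so a mouse is the nuclei of 1 strain in 1 batch. The deposited cell table does not give the sex of each mouse, so sex is not in any fit, and it writes C57BL/6J as C57BL_6NJ and NZO/H1LtJ as NZO_HlLtJ. C57BL/6J and C57BL/6NJ are different substrains; the 2 names were taken as the same mice, called C57BL/6J throughout as in the labels, and which substrain was used is not settled here.

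Neuregulins are growth factors made mostly as membrane-bound precursors; their EGF-like domain binds ErbB3 or ErbB4 on the same or a neighbouring cell. ErbB receptors are tyrosine kinases that work as pairs: ErbB2 binds no known ligand and ErbB3 has little kinase activity of its own, so each depends on a partner, whereas EGFR (the product of Egfr) and ErbB4 signal after binding ligand. In the brain the pathway is known for interneuron development, for synapses onto ErbB4-bearing interneurons and for oligodendrocyte growth and myelination.

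Nrg3 lies on chromosome 14 (38365102 to 39473235, GRCm38.p6) and spans 1108 kb, Erbb4 on chromosome 1 (68031884 to 69108576) spans 1077 kb, and Nrg1 on chromosome 8 (31807452 to 32891609) spans 1084 kb. Egfr (16752203 to 16913907) and Erbb2 (98412484 to 98437716) lie on chromosome 11 and Erbb3 on chromosome 10 (128567523 to 128589635). The RefSeq promoter table, of the same build, held Nrg3, Erbb4, Egfr and Erbb2. An open chromatin peak of the authors' single list of 291715 peaks overlapped the 250 bases before the listed start of Nrg3 and of Erbb2, and none overlapped those of Erbb4 or Egfr. By comparison, 51.7% of the table's 32851 promoters had a peak in that window. CpG dinucleotides numbered 27 in the Nrg3 window, 16 in Erbb2, 12 in Erbb4 and 11 in Egfr, against a median of 6 over all promoters. The GC box GGGCGG, searched on both strands, occurred once, in Egfr, and is found in 32.7% of all promoters; TATAAA, found in 12.4%, occurred in none of these windows. The part of each window that lies before the annotated gene is shown from 5′ to 3′ because it is where the peak list and the CpG content of these genes can be compared; capitals mark CpG. It covers chr14:39473236-39473338 on the minus strand for Nrg3, chr11:98412234-98412483 on the plus strand for Erbb2 and chr11:16751953-16752202 on the plus strand for Egfr, whereas the Erbb4 window falls wholly inside the annotated gene.
Nrg3: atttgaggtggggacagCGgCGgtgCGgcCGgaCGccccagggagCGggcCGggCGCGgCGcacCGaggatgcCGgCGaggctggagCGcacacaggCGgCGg
Erbb2: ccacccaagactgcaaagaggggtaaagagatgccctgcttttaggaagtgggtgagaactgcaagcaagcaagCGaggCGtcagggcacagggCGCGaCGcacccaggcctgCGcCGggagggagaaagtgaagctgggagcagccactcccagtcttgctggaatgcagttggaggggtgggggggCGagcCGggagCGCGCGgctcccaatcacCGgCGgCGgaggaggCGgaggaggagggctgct
Egfr: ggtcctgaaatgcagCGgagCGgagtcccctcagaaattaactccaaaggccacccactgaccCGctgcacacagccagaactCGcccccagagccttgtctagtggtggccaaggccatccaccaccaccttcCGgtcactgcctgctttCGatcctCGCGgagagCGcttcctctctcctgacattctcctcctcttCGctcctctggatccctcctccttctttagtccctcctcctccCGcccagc

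The deposited table kept 55672 nuclei of 89339 barcodes in 18 clusters of the authors' annotation, with 944 to 4416 nuclei per mouse (median 1613). Batch 3 was the shallowest, with a median of 3232 counts (unique molecular identifiers, UMIs) per kept nucleus against 4593 to 4931 in the other batches. Of 54141 kept barcode sequences, 1517 occurred in more than 1 batch; each was counted in its own batch. Most markers of the main types went with the cluster names: Drd1 was highest in Drd1+ neurons, Drd2 and Penk in Drd2+ neurons, Mog in oligodendrocytes, Aqp4 in astrocytes and Csf1r in macrophages. Some did not. Of the Drd1+ markers, Tac1 was highest in Drd1+ neuron_2 (612 CPM, counts per 1000000) and Isl1 in Chat+ interneurons (143 CPM). The projection-neuron marker Ppp1r1b was highest in the cluster Unknown_2 (183 CPM). The small Drd1+ neuron_2 cluster (1506 nuclei) had the highest levels of Otof, Casz1, Pcdh8, Adarb2 and Cacng5, genes known from eccentric projection neurons. Adarb2 alone was at 2626 CPM there, next to 3077 CPM for the 5 genes together. Their sum was also 2292 CPM in the Unknown cluster, 717 CPM in the polydendrocyte/oligodendrocyte cluster and 695 CPM in Nxph1+ interneurons. This list is thus not particular to eccentric neurons. The cluster named Unknown had the highest levels of neuroblast markers. For levels across clusters, counts were divided by the total of a mouse's nuclei in a cluster and given per 1000000 counts (CPM), for mice with at least 10 nuclei there. Clusters were made from expression in the same nuclei, so these levels are a description with no test, and they are compared within a gene only. For the folds and log2 ratios between clusters in this description, 1 CPM was added to both levels of a mouse.

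Nrg1 had its highest levels in the projection neurons. Of its 1210636 counts, 50.2% came from Drd1+ neurons and 41.0% from Drd2+ neurons. These clusters held 27.7% and 23.7% of all kept nuclei, at median depths of 6505 and 5953 UMIs. The shares of counts thus depend on cluster size and depth as well as on the level of Nrg1. Its mean level was 5944 ± 931 CPM (SD, n = 32 mice) in Drd2+ neurons, 5727 ± 768 CPM in Drd1+ neurons and 4259 ± 1769 CPM in Drd1+ neuron_2. These 3 ranges overlapped, although 25 of 32 mice had more in Drd2+ than in Drd1+ neurons, and the median log2 ratio of Drd1+ over Drd2+ was -0.05. A Nrg1 UMI was found in 99.96% of Drd1+ nuclei (median depth 6505) and in 6.19% of oligodendrocyte nuclei (median depth 1640), where the mean number of Nrg1 UMIs in a positive nucleus was 39.5 and 1.49. Excitatory Slc17a7+ neurons had 3482 ± 594 CPM (n = 20) and Chat+ interneurons 3152 ± 228 CPM (n = 3), and Nxph1+ interneurons had 1214 ± 567 CPM (n = 32). A Nrg1 UMI was found in 98.1% of Slc17a7+ nuclei and in 100% of Chat+ nuclei. Nrg1 also counted 3498 ± 1326 CPM in mural cells (n = 20) and 2225 ± 1190 CPM in the endothelium (n = 29). There the counts were uneven, with a UMI in 39.2% of mural nuclei and 34.7% of endothelial nuclei at 33.5 and 29.3 UMIs each. The summed level of the projection-neuron markers Ppp1r1b, Bcl11b, Rgs9 and Pde10a, all 4 above 0, was 3350 CPM in mural cells and 1687 CPM in the endothelium, next to 4418 CPM in Drd1+ neurons and 319 CPM in oligodendrocytes; its part in the vascular Nrg1 level was not tested.

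Nrg3, a ligand of ErbB4, was highest in the excitatory neurons. It reached 7758 ± 555 CPM in Slc17a7+ neurons (n = 20) and 5987 ± 780 CPM in Slc17a7+ neuron_2 (n = 16), then 4417 ± 835 CPM in Chat+ interneurons (n = 3) and 3289 ± 628 CPM in Nxph1+ interneurons (n = 32). Among projection neurons it separated the types: Drd1+ neurons had 2117 ± 449 CPM and Drd2+ neurons 687 ± 251 CPM, and the 32 mice gave ranges that did not overlap. Drd1+ neurons were higher in 32 of 32 mice, by a median of 3.06-fold (2.07 to 5.69). A Nrg3 UMI was present in 96.5% of Drd1+ nuclei and in 49.1% of Drd2+ nuclei, at like depths (medians of 6505 and 5953 UMIs). Oligodendrocytes and astrocytes had 21.3 ± 16.5 and 23.6 ± 14.8 CPM, while the polydendrocyte/oligodendrocyte cluster, of precursor and maturing cells, had 893 ± 446 CPM (n = 27). That cluster summed 1355 CPM of the projection-neuron markers, and the part of these in its Nrg3 level was not tested.

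Nrg2 lies on chromosome 18 (36014581 to 36197532). Its level was nearly equal in both main projection neurons, 266 ± 30.9 CPM in the Drd1+ cluster and 266 ± 31.7 CPM in the Drd2+ cluster, with 18 of 32 mice higher in Drd2+. Drd1+ neuron_2 was lower than Drd1+ neurons in 32 of 32 mice, at 166 ± 33.0 CPM, and Nxph1+ interneurons had 167 ± 39.5 CPM. The genes whose level over the 18 clusters was most like that of Nrg2, by Pearson correlation of log2(CPM + 1) among 13159 genes, were Ttll11 (0.97), Gm1043 (0.96) and Me3 (0.95). For Nrg1 they were Fgf14 (0.95), Gabrg3 (0.94) and Gpr158 (0.93), and for Nrg3 Gm20642 (0.99), Syt1 (0.97) and Cabp1 (0.96). Gm20642 lies inside Nrg3, as does Nrg3os, and whether counting used strand is not given in the sources used here, so reads of overlapping genes cannot be told apart.

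Erbb4, the receptor of all 3 neuregulins, had a pattern unlike that of its ligands. Its level was 6292 ± 2371 CPM in Nxph1+ interneurons and 4846 ± 935 CPM in Drd1+ neuron_2 (n = 32 each), and 3621 ± 2072 CPM in the Unknown cluster (n = 26). Oligodendrocytes had 2183 ± 382 CPM (n = 32) and the polydendrocyte/oligodendrocyte cluster 2298 ± 765 CPM (n = 27). Among clusters with at least 3 mice, Drd1+ neurons followed at 343 ± 86.2 CPM, below every oligodendrocyte value. Over all 7 genes and all such clusters, this was the only neighbouring pair in the order of levels whose mice did not overlap. The cluster Unknown_2 and Sst+ interneurons, with 2 mice each, had pooled levels of 755 and 717 CPM. Drd2+ neurons had 43.5 ± 23.1 CPM, and the Drd1+ level of the same mouse was higher in 32 of 32 mice. The median was 8.48-fold (4.07 to 18.5), with 1 CPM added to both levels. Drd1+ neuron_2 exceeded Drd1+ neurons by a median of 14.02-fold (8.77 to 31.3), again in 32 of 32 mice. Its pattern over clusters was less closely matched by any other gene, with Sox2ot at 0.79, Dhx36 at 0.79 and Slc25a13 at 0.74.

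Among the other receptors, Erbb3 belonged to the oligodendrocyte lineage: 90.4% of its counts came from oligodendrocytes, at 118 ± 41.2 CPM, and the polydendrocyte/oligodendrocyte cluster had 61.0 ± 42.9 CPM. A UMI was found in 16.3% of oligodendrocyte nuclei against 0.188% of the deeper Drd1+ nuclei. Its closest genes were Gjc3 (0.97), Adamts4 (0.95) and Sox10 (0.93), the first a gap junction gene and the last a transcription factor of oligodendrocytes. Among clusters with at least 3 mice, Egfr was highest in the Unknown cluster, at 783 ± 393 CPM. Astrocytes followed at 277 ± 57.3 CPM and Nxph1+ interneurons at 245 ± 140 CPM. Fibroblasts and the cluster Unknown_2, with 2 mice each, had pooled Egfr levels of 244 and 128 CPM. Egfr was at 1.42 ± 1.18 CPM in Drd1+ neurons, 1.57 ± 2.16 CPM in Drd2+ neurons and 2.05 ± 1.99 CPM in oligodendrocytes. The gene closest to it was Egfros (0.94), which lies inside Egfr, so the caveat on strand holds there too. Erbb2 was detected with 179 counts in all, 48 of them in astrocytes, 46 in Drd1+ neurons, 30 in Drd2+ neurons and 23 in the endothelium, and its pooled level was under 8 CPM in every cluster. It did not pass the filter on low counts in any cluster, so no strain difference was tested for the shared partner receptor.

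**Figure D1:**
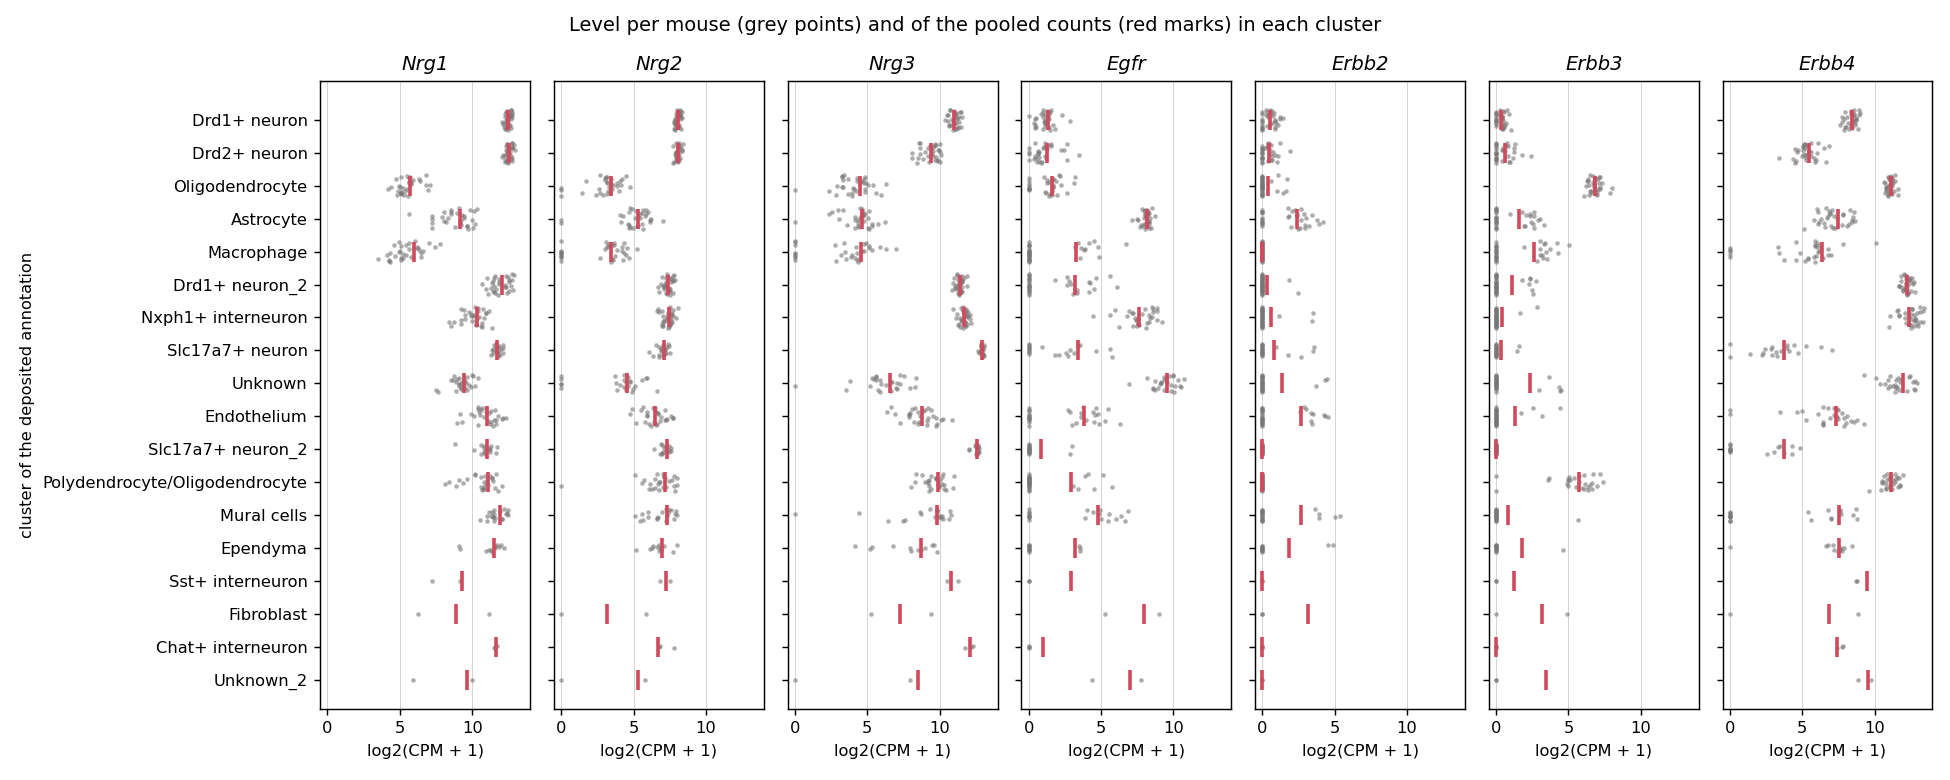
Level of each gene in the clusters, in CPM on a log axis; each grey point is 1 mouse with at least 10 nuclei in that cluster and the red mark is the level of the pooled counts. Nrg3 and Erbb4 are each higher in Drd1+ than in Drd2+ neurons, Erbb3 is highest in oligodendrocytes, and Erbb2 stays under 8 CPM in every pooled cluster.

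Strain differences were tested by summing the counts of each mouse within a cluster and fitting strain and batch with edgeR's quasi-likelihood test, over all genes that passed a filter on low counts and with Benjamini-Hochberg adjustment; calls were made where the adjusted p was under 0.05. The 4 animals of a strain are separate mice, 1 in each batch. Levels by strain below are CPM scaled by TMM, edgeR's library scaling, and log2 differences are of a strain from the mean of the other 7 in the same fit; the 8 contrasts of a gene share mice. Of the 18 clusters, 9 had enough mice (at least 3 per strain), and 15 of 36 combinations of gene and cluster that passed the filter were called, leaving aside Egfr in Drd2+ neurons, which passed there through CAST/EiJ alone and so had to differ.

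In the main neuron clusters the tested members were all called, but so was most of the transcriptome: 4 of 4 in Drd1+ neurons (Nrg1, Nrg2, Nrg3 and Erbb4), where 61.7% of all genes were called, and, apart from Egfr, 4 of 4 in Drd2+ neurons (the same genes), where 55.9% were. In oligodendrocytes 4 of 4 members (Nrg1, Nrg3, Erbb3 and Erbb4) were called against 34.8% of all genes, and in Drd1+ neuron_2 3 of 4 against 17.3%. None was called among 5 in astrocytes (21.5% of all genes), 2 in macrophages (24.8%), 5 in Nxph1+ interneurons (1.53%), 4 in the endothelium (3.23%) and 4 in the polydendrocyte/oligodendrocyte cluster (1.24%). As a description, the median F of the tested members was 17.1 against 3.38 over all genes in Drd1+ neurons, 10.1 against 1.75 in oligodendrocytes and 5.85 against 1.42 in Drd1+ neuron_2, but 1.40 against 1.40 in astrocytes. Only members that passed the filter enter these medians, and none is given for Drd2+ neurons because of Egfr.

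Of single-strain contrasts, 16 of 32 were called in Drd1+ neurons (20.4% over all genes and strains), 17 of 32 in Drd2+ neurons without Egfr (17.7%), 10 of 32 in oligodendrocytes (10.5%) and 9 of 32 in Drd1+ neuron_2 (3.7%). In macrophages 1 of 16 was called (7.04%), and none in astrocytes (4.95%), Nxph1+ interneurons (0.379%), endothelium (0.604%) or polydendrocyte/oligodendrocytes (0.232%).

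Nrg3 differed among strains in both main projection neurons, with CAST/EiJ at the top and 129S1/SvImJ at the bottom. In Drd1+ neurons the CAST/EiJ mice of batches 1 to 4 had 2914, 3150, 2598 and 2891 CPM, and the 129S1/SvImJ mice 1760, 1562, 1267 and 1596 CPM. CAST/EiJ was the highest and 129S1/SvImJ the lowest strain in 4 of 4 batches, and their mice did not overlap. The means were 2889 ± 226 and 1546 ± 205 CPM (SD, n = 4), a 1.87-fold difference (strain term, adjusted p = 7.62e-17). Against the other strains CAST/EiJ was higher by 0.54 ± 0.04 (log2, SE) and NOD/ShiLtJ by 0.31 ± 0.05, and 129S1/SvImJ fell by 0.50 ± 0.05 and A/J fell by 0.39 ± 0.05. The same strains were the extremes for the summed markers of oligodendrocyte precursors in Drd1+ neurons (46.9 CPM in CAST/EiJ and 18.3 CPM in 129S1/SvImJ, all 4 above 0). They were also the extremes for those of microglia and macrophages (59.5 and 42.8 CPM, all 4 above 0). The excitatory-neuron markers were lowest in 129S1/SvImJ (4.98 CPM, with 5.70 CPM in CAST/EiJ) and highest in PWK/PhJ (6.59 CPM). Among lists that went the other way were the neuroblast markers (41.0 CPM in CAST/EiJ and 58.4 CPM in 129S1/SvImJ) and the cholinergic-interneuron markers (1.68 and 6.87 CPM). The part of these lists in the difference was not tested.

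In Drd2+ neurons, where Nrg3 was lower, the strains spread further. The CAST/EiJ mice had 1066, 984, 1063 and 957 CPM and the 129S1/SvImJ mice 395, 414, 259 and 279 CPM. Every 129S1/SvImJ mouse was below every CAST/EiJ mouse, and the strain means, 1018 ± 55.4 and 337 ± 78.8 CPM, differed 3.02-fold (adjusted p = 1.46e-07). By batch, 129S1/SvImJ was the lowest strain in 4 of 4 and CAST/EiJ the highest in 2 of 4. CAST/EiJ was higher than the other strains by 0.76 ± 0.12 and PWK/PhJ by 0.55 ± 0.12, and 129S1/SvImJ fell by 1.09 ± 0.14. The WSB/EiJ mice were uneven, at 716, 489, 363 and 331 CPM, and the batch 1 mouse, the highest, was also the highest of that strain for Erbb4 in Drd1+ neurons. The markers of other projection neurons were read beside this. The Drd1+ markers Drd1, Tac1, Pdyn and Isl1, all above 0 in Drd2+ neurons, summed there to 54.7 CPM in 129S1/SvImJ and 80.1 CPM in CAST/EiJ, the lowest and the highest strain. The eccentric-neuron markers, all 5 above 0, summed to 22.6 CPM in 129S1/SvImJ and 61.3 CPM in CAST/EiJ, the highest strain, with WSB/EiJ lowest at 20.6 CPM. The interneuron markers (39.1 and 51.2 CPM, all 8 above 0) and those of microglia and macrophages (38.3 and 55.6 CPM, all 4 above 0) also had 129S1/SvImJ lowest and CAST/EiJ highest. The oligodendrocyte-precursor markers (27.0 and 58.2 CPM) and the excitatory-neuron markers (4.52 and 6.85 CPM) were also lowest in 129S1/SvImJ. Their highest strains were NZO/H1LtJ (63.0 CPM) and NOD/ShiLtJ (7.76 CPM). Among lists that went the other way were the cholinergic-interneuron markers (4.82 CPM in 129S1/SvImJ and 3.77 CPM in CAST/EiJ, the lowest strain). The part of these lists in the Nrg3 difference was not tested.

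For Erbb4 in Drd1+ neurons 129S1/SvImJ was the highest strain and CAST/EiJ the lowest. The 129S1/SvImJ mice had 510, 499, 416 and 410 CPM and the CAST/EiJ mice 260, 222, 210 and 248 CPM, without overlap. Their means were 459 ± 53.4 and 235 ± 23.0 CPM, a 1.95-fold difference (adjusted p = 6.39e-05). By batch, 129S1/SvImJ was the highest strain in 2 of 4 and CAST/EiJ the lowest in 2 of 4, and 129S1/SvImJ was above CAST/EiJ in 4 of 4. CAST/EiJ fell by 0.59 ± 0.12 against the other strains, and 129S1/SvImJ was higher by 0.51 ± 0.11, a call lost when the mice of batch 2 were left out (adjusted p = 0.0585). The summed eccentric-neuron markers in Drd1+ neurons, all 5 above 0, ran from 158 CPM in C57BL/6J to 413 CPM in PWK/PhJ, with 236 CPM in 129S1/SvImJ and 307 CPM in CAST/EiJ. The neuroblast markers, all 4 above 0, were lowest in CAST/EiJ, as Erbb4 was, at 41.0 CPM against 58.4 CPM in 129S1/SvImJ and 65.1 CPM in the highest strain, NZO/H1LtJ. The part of both lists in the difference was not tested. In Drd2+ neurons 129S1/SvImJ (70.7 ± 18.1 CPM) again exceeded the lowest strain, here WSB/EiJ (21.4 ± 8.97 CPM, adjusted p = 0.00454), but this call was lost without batch 2 (adjusted p = 0.0610). The eccentric-neuron markers there, all 5 above 0, were also lowest in WSB/EiJ, at 20.6 CPM. They were 22.6 CPM in 129S1/SvImJ and 61.3 CPM in the highest strain, CAST/EiJ, and their part in this difference was not tested.

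**Figure D2:**
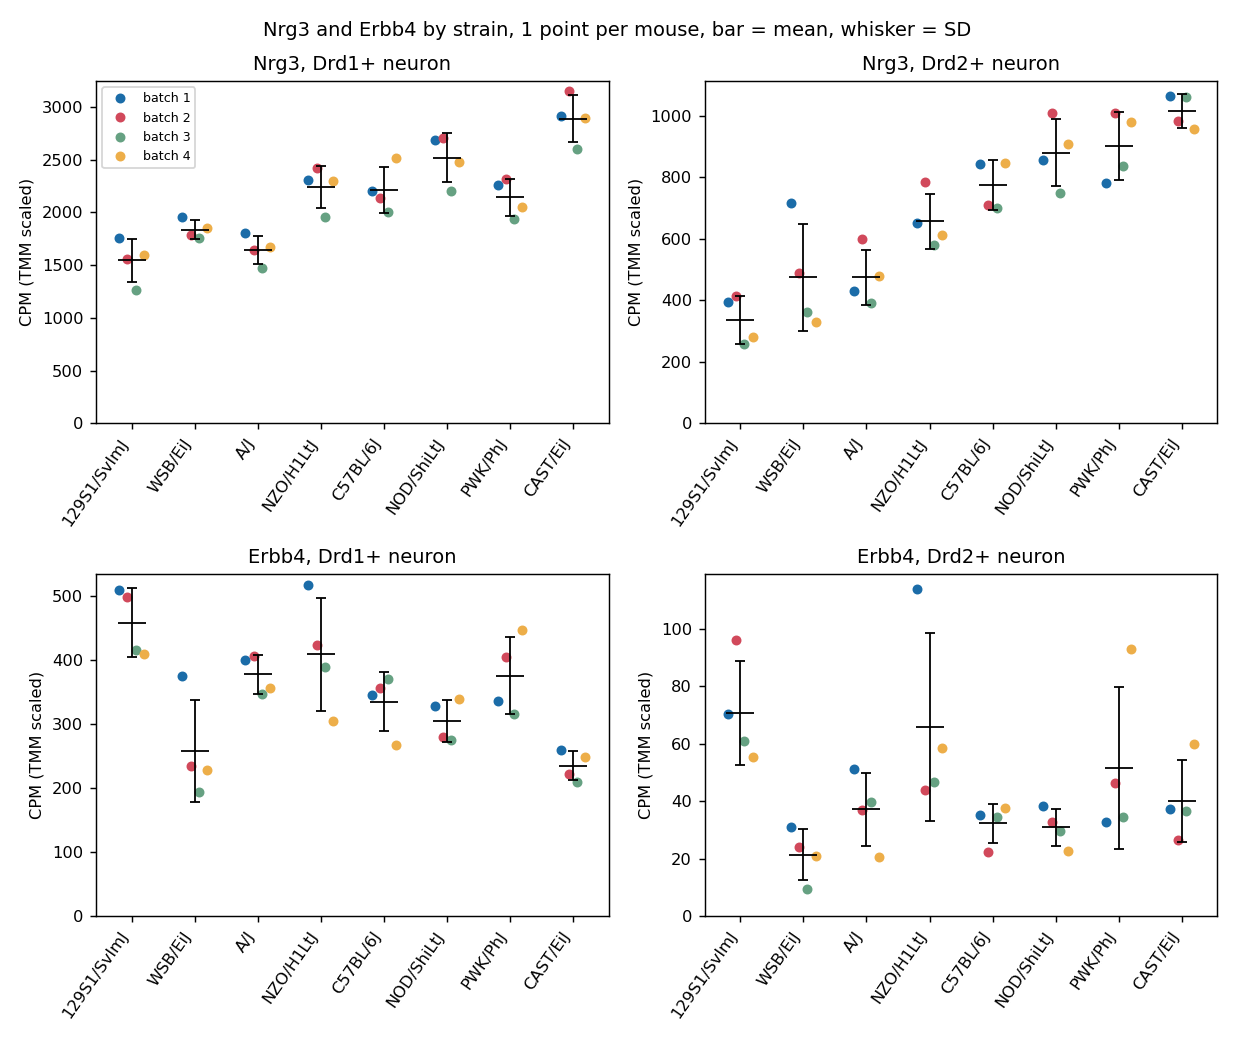
Nrg3 and Erbb4 in Drd1+ and Drd2+ neurons by strain, in TMM-scaled CPM; each point is 1 mouse coloured by batch, bars are means and whiskers SD (n = 4), and strains are ordered by Nrg3 in Drd2+ neurons. Nrg3 goes from 337 CPM in 129S1/SvImJ to 1018 CPM in CAST/EiJ in Drd2+ neurons, and Erbb4 in Drd1+ neurons is highest in 129S1/SvImJ and lowest in CAST/EiJ.

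Nrg1 differed among strains in the main projection neurons too, with NOD/ShiLtJ at the top and PWK/PhJ at the bottom. In Drd1+ neurons the NOD/ShiLtJ mice had 6762, 7036, 5626 and 6450 CPM and the PWK/PhJ mice 5097, 5282, 4253 and 4673 CPM. These did not overlap, and the means of 6468 ± 611 and 4826 ± 459 CPM differed 1.34-fold (adjusted p = 7.45e-12). Drd2+ neurons had the same extreme strains, with 7257 ± 813 CPM in NOD/ShiLtJ and 4859 ± 618 CPM in PWK/PhJ, a 1.49-fold difference (adjusted p = 1.24e-13). Batch 3, the shallowest, gave the lowest Nrg1 value of every strain in both clusters, and within batches NOD/ShiLtJ was above PWK/PhJ in 4 of 4 batches of each cluster. PWK/PhJ, the lowest strain for Nrg1, was the highest for the summed markers of mural cells (17.9 CPM in Drd1+ neurons and the same in Drd2+ neurons, all 4 above 0), of cholinergic interneurons (11.4 and 17.8 CPM, in that order of clusters, all 3 above 0) and of ependyma (5.40 and 5.10 CPM, all 3 above 0), and in Drd2+ neurons for those of astrocytes (42.5 CPM, all 4 above 0). In NOD/ShiLtJ these were 12.7 and 13.3 CPM, 6.49 and 11.7 CPM, 4.36 and 3.47 CPM, and 38.5 CPM. In Drd1+ neurons PWK/PhJ was also highest for the eccentric-neuron markers (413 CPM, against 363 CPM in NOD/ShiLtJ, all 5 above 0). The same held there for the excitatory-neuron markers (6.59 and 6.19 CPM, all 3 above 0). In Drd2+ neurons the excitatory-neuron markers were instead highest in NOD/ShiLtJ (7.76 CPM, against 5.34 CPM in PWK/PhJ). NOD/ShiLtJ, the highest strain for Nrg1, was also highest for the Drd2+ markers in Drd2+ neurons (2101 CPM, against 1992 CPM in PWK/PhJ). In Drd1+ neurons it was highest for the Drd1+ markers (817 and 593 CPM) and the interneuron markers (44.2 and 40.9 CPM). The part of these lists in the Nrg1 difference was not tested.

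Nrg1 also differed among strains in the Drd1+ neuron_2 cluster. The A/J mice had 9028, 7791, 7283 and 6479 CPM and the PWK/PhJ mice 2301, 1778, 2102 and 2384 CPM. PWK/PhJ was the lowest strain in 4 of 4 batches and A/J the highest in 3. The means of 7645 ± 1069 and 2141 ± 269 CPM differed 3.57-fold (adjusted p = 1.57e-24); in Drd1+ neurons the same strains had 6386 ± 854 and 4826 ± 459 CPM. The strains called higher were A/J by 0.93 ± 0.08, 129S1/SvImJ by 0.76 ± 0.08 and NOD/ShiLtJ by 0.59 ± 0.08. PWK/PhJ fell by 1.16 ± 0.10, NZO/H1LtJ fell by 0.55 ± 0.09 and C57BL/6J fell by 0.49 ± 0.09. Nuclei of A/J were higher at each quartile: the lower and upper quartiles were 2720 and 8848 CPM against 303 and 2897 CPM in PWK/PhJ. The median nucleus had 6178 CPM of Nrg1 in A/J (185 nuclei, median depth 4987) and 1655 CPM in PWK/PhJ (216 nuclei, median depth 4618.5), while a UMI was found in 86.5% and 79.6% of nuclei. The summed eccentric-neuron markers in this cluster were 3536 CPM in A/J, the highest strain, and 2895 CPM in PWK/PhJ. The neuroblast markers, all 4 above 0, were highest in the 3 strains called higher for Nrg1, at 234 CPM in NOD/ShiLtJ, 206 CPM in A/J and 186 CPM in 129S1/SvImJ, against 135 CPM in PWK/PhJ. The Drd1+ markers, all 4 above 0, were highest in PWK/PhJ, at 1073 CPM against 880 CPM in A/J. The part of these lists in the Nrg1 difference was not tested.

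**Figure D3:**
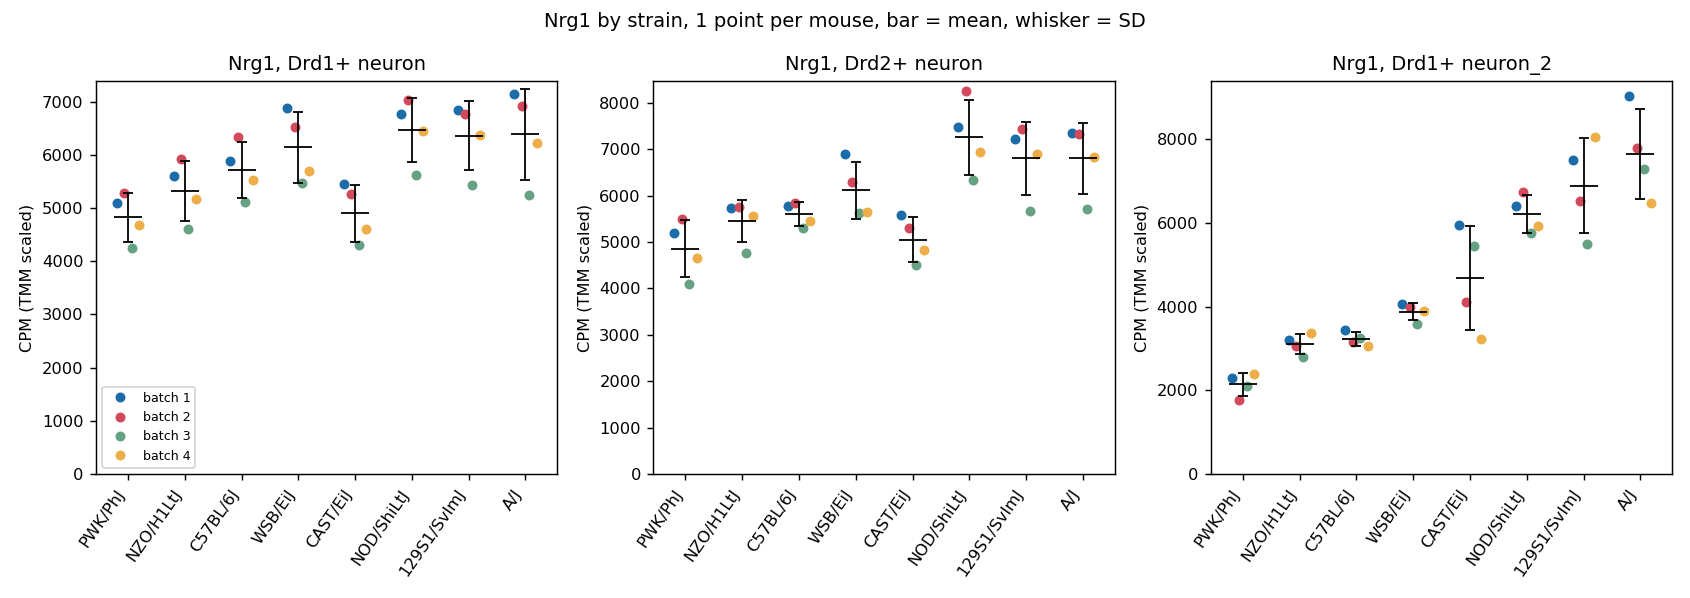
Nrg1 by strain in Drd1+, Drd2+ and Drd1+ neuron_2 clusters, in TMM-scaled CPM; each point is 1 mouse coloured by batch, bars are means and whiskers SD (n = 4), and strains are ordered by Drd1+ neuron_2. In that cluster PWK/PhJ has the lowest mean, 2141 CPM, and A/J the highest, 7645 CPM, a wider span of means than in Drd1+ or Drd2+ neurons.

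Other members also differed in Drd1+ neuron_2. Erbb4 was highest in CAST/EiJ (6356 ± 1391 CPM) and lowest in C57BL/6J (4124 ± 295 CPM; adjusted p = 0.0016), a call lost without batch 2 (adjusted p = 0.0761), and C57BL/6J fell by 0.41 ± 0.09 against the rest. The interneuron markers, all 8 above 0, had the same extremes in this cluster, 97.1 CPM in CAST/EiJ and 39.5 CPM in C57BL/6J, and their part in the Erbb4 difference was not tested. Nrg3 was highest in C57BL/6J (3788 ± 605 CPM) and lowest in NZO/H1LtJ (2466 ± 385 CPM; adjusted p = 7.68e-05). So the strain at the top for Nrg3 was CAST/EiJ in both main projection neurons and C57BL/6J here; that difference was not tested. Over the 1506 nuclei of the cluster, Nrg1 and Erbb4 CPM had a Spearman correlation of -0.55, and between -0.70 and -0.45 within strains. The points share depth, which correlated with Nrg1 at 0.48 and with Erbb4 at -0.40, and the raw counts gave -0.21.

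Nrg2 differed little. In Drd2+ neurons it was 303 ± 54.2 CPM in CAST/EiJ and 224 ± 12.7 CPM in PWK/PhJ (adjusted p = 0.000459), and PWK/PhJ fell by 0.29 ± 0.07. The cholinergic-interneuron markers, all 3 above 0, were lowest there in CAST/EiJ (3.77 CPM) and highest in PWK/PhJ (17.8 CPM). PWK/PhJ was also highest for the mural markers (17.9 CPM, against 13.5 CPM in CAST/EiJ). The eccentric-neuron markers went the other way, at 61.3 CPM in CAST/EiJ, the highest strain, and 49.9 CPM in PWK/PhJ. The part of these lists in the Nrg2 difference was not tested. In Drd1+ neurons the Nrg2 call (adjusted p = 0.00966) was lost without batch 1 (0.0912), without batch 4 (0.0709) and without the batch block (0.226).

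In oligodendrocytes both receptor genes differed among strains, with CAST/EiJ at opposite ends. The CAST/EiJ mice had 140, 167, 260 and 235 CPM of Erbb3, and the 129S1/SvImJ mice 93.2, 79.3, 73.3 and 95.7 CPM. All CAST/EiJ mice were above all 129S1/SvImJ mice, with means of 200 ± 56.4 and 85.3 ± 10.8 CPM (2.35-fold, adjusted p = 1.57e-08), and CAST/EiJ exceeded the other strains by 0.85 ± 0.12. For Erbb4, the NZO/H1LtJ mice had 2481, 2388, 3283 and 3349 CPM and the CAST/EiJ mice 2094, 1725, 1815 and 1710 CPM. These also did not overlap, and the means were 2875 ± 511 and 1836 ± 178 CPM (1.57-fold, adjusted p = 9.59e-11). NZO/H1LtJ was higher than the rest by 0.43 ± 0.06 and 129S1/SvImJ by 0.31 ± 0.06, and CAST/EiJ fell by 0.32 ± 0.07. Marker lists named for other cells moved with both genes, and their part was not tested. The interneuron and eccentric-neuron lists were not particular to neurons. They summed to 1174 and 717 CPM in the polydendrocyte/oligodendrocyte cluster. With Erbb3, the interneuron markers (all 8 above 0) were 291 CPM in CAST/EiJ, the highest strain, and 151 CPM in 129S1/SvImJ, the eccentric-neuron markers (all 5 above 0) 74.5 and 21.0 CPM, and those of microglia and macrophages (all 4 above 0) 54.7 and 44.7 CPM. With Erbb4, the excitatory-neuron markers (all 3 above 0) were 21.0 CPM in NZO/H1LtJ, the highest strain, and 14.9 CPM in CAST/EiJ, the lowest. NZO/H1LtJ was also highest for the oligodendrocyte-precursor markers (133 CPM, against 108 CPM in CAST/EiJ), the Drd1+ markers (144 and 129 CPM) and the Drd2+ markers (260 and 247 CPM). Among lists that went the other way were the interneuron markers (146 CPM in NZO/H1LtJ and 291 CPM in CAST/EiJ) and the eccentric-neuron markers (15.5 and 74.5 CPM).

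The ligands were scarce in oligodendrocytes. Nrg3 had 12, 39, 16 and 42 counts in the NZO/H1LtJ mice (49.9 ± 26.5 CPM) against 14.1 ± 6.54 CPM in 129S1/SvImJ (adjusted p = 9.45e-08), and NZO/H1LtJ exceeded the other strains by 1.51 ± 0.21. The oligodendrocyte-precursor markers, all 4 above 0, summed there to 133 CPM in NZO/H1LtJ, also the highest strain, 77.2 CPM in 129S1/SvImJ and 76.3 CPM in the lowest strain, WSB/EiJ. NZO/H1LtJ was also the highest strain for the excitatory-neuron markers (21.0 CPM, against 15.9 CPM in 129S1/SvImJ), the Drd1+ markers (144 and 131 CPM) and the Drd2+ markers (260 and 240 CPM), each with every gene above 0. The part of these lists in the Nrg3 difference was not tested. Nrg1 was 94.8 ± 44.7 CPM in PWK/PhJ and 32.4 ± 16.4 CPM in NZO/H1LtJ (adjusted p = 0.0191), with overlapping mice, and without the batch block the call was lost (adjusted p = 0.270). The projection-neuron markers summed there to 284 CPM in the lowest strain, PWK/PhJ, and 328 CPM in the highest, A/J. The astrocyte markers, all 4 above 0, were highest in PWK/PhJ, as Nrg1 was, at 388 CPM against 257 CPM in NZO/H1LtJ and 215 CPM in the lowest strain, WSB/EiJ, and the interneuron markers, all 8 above 0, were 233 CPM in PWK/PhJ and lowest in NZO/H1LtJ, at 146 CPM. The part of these lists in the Nrg1 difference was not tested.

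**Figure D4:**
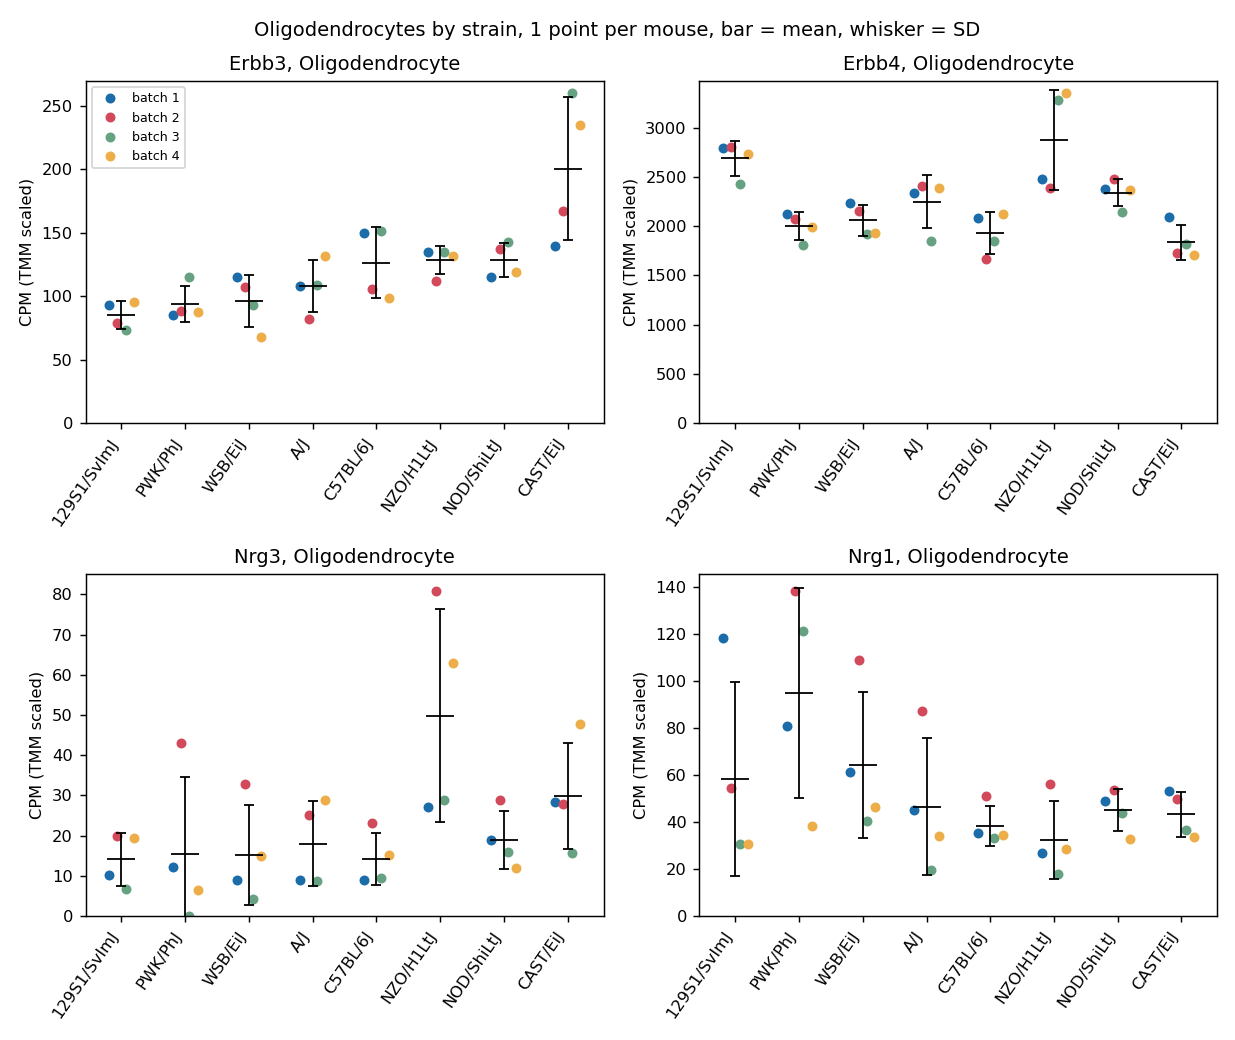
Erbb3, Erbb4, Nrg3 and Nrg1 in oligodendrocytes by strain, in TMM-scaled CPM; each point is 1 mouse coloured by batch, bars are means and whiskers SD (n = 4), and strains are ordered by Erbb3. CAST/EiJ is the highest strain for Erbb3 (200 CPM) and the lowest for Erbb4 (1836 CPM), and NZO/H1LtJ is the highest for Erbb4 and Nrg3.

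Egfr counts were few in projection neurons. In Drd2+ neurons the CAST/EiJ mice had 15, 11, 13 and 10 counts (6.50 ± 2.58 CPM), and the mice of the other strains between 0 and 11 counts. CAST/EiJ was the highest strain in 4 of 4 batches and exceeded the others by 2.72 ± 0.36 (strain term, adjusted p = 3.73e-06). But the gene passed the filter on the strength of that strain and did not pass it without batch 1. CAST/EiJ was also highest there for the interneuron markers (51.2 CPM, against 40.5 CPM in A/J, the lowest strain for Egfr). The same held for the eccentric-neuron markers (61.3 and 30.1 CPM), while the cholinergic-interneuron markers were lowest in CAST/EiJ (3.77 CPM). Egfr itself was highest in the neuroblast-like Unknown cluster and in astrocytes, and neither list was highest in CAST/EiJ. The neuroblast markers were 54.2 CPM in CAST/EiJ and highest in NZO/H1LtJ (75.7 CPM). The astrocyte markers were 36.0 CPM in CAST/EiJ and highest in PWK/PhJ (42.5 CPM). The part of these lists was not tested. In Drd1+ neurons Egfr did not pass the filter, and the A/J mice had the most, with 8, 37, 18 and 5 counts. In astrocytes, where Egfr was higher, strain means ran from 241 ± 75.1 CPM in A/J to 336 ± 37.5 CPM in PWK/PhJ and were not called (adjusted p = 0.212), with CAST/EiJ at 333 ± 86.4 CPM. Erbb4 in macrophages was called for CAST/EiJ alone (2.47 ± 0.56; the strain term was not called, adjusted p = 0.0723), and it rested on 1 mouse of batch 1 with 112 counts: without batch 1 the value was 0.61 (adjusted p = 0.821). The eccentric-neuron markers, all 5 above 0, summed in macrophages to a mean of 164 CPM in CAST/EiJ, with 1 mouse at 637 CPM. In the other strains the means were 5.11 to 29.5 CPM. This list also summed to 2292 CPM in the Unknown cluster and 695 CPM in Nxph1+ interneurons, clusters with high Erbb4. The part of these markers in this call was not tested.

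Whether a strain difference itself depended on the type of projection neuron was tested as an interaction of strain and cluster in a joint fit of Drd1+ and Drd2+ libraries, blocked by mouse. Of the 4 members other than Egfr that passed the filter it was called for Nrg1 and Nrg3, and 4.58% of all genes were called. For Nrg3 the level in Drd2+ relative to Drd1+ neurons of the same mouse was lowest in 129S1/SvImJ, at -2.16, -1.92, -2.29 and -2.51 (log2; mean -2.22 ± 0.25), and highest in PWK/PhJ, at -1.53, -1.20, -1.21 and -1.06 (mean -1.25 ± 0.20). The 2 strains did not overlap (adjusted p = 0.00847), though the call was lost without batch 3 (0.268), without batch 4 (0.250) and without the mouse block (0.0922). In Drd2+ neurons PWK/PhJ also exceeded 129S1/SvImJ in the Drd1+ markers (78.9 against 54.7 CPM) and the eccentric-neuron markers (49.9 against 22.6 CPM), and their part in the ratio was not tested. For Nrg1 the ratio was 0.16 ± 0.05 in NOD/ShiLtJ and -0.03 ± 0.07 in C57BL/6J (adjusted p = 0.000291), a small difference whose call was lost without batch 2 (0.0970) and without the mouse block (1). Egfr, with 1 CPM added to both levels, had its highest ratio in CAST/EiJ (1.55) and its lowest in A/J (-1.52, adjusted p = 9.35e-06). These came from counts of 0 to 37 per mouse. But Egfr passed the filter through the counts that make this ratio, so its call is given as a description. Erbb4, whose ratio ran from -3.67 in WSB/EiJ to -2.61 in CAST/EiJ, was not called (adjusted p = 0.176), nor was Nrg2 (0.119).

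**Figure D5:**
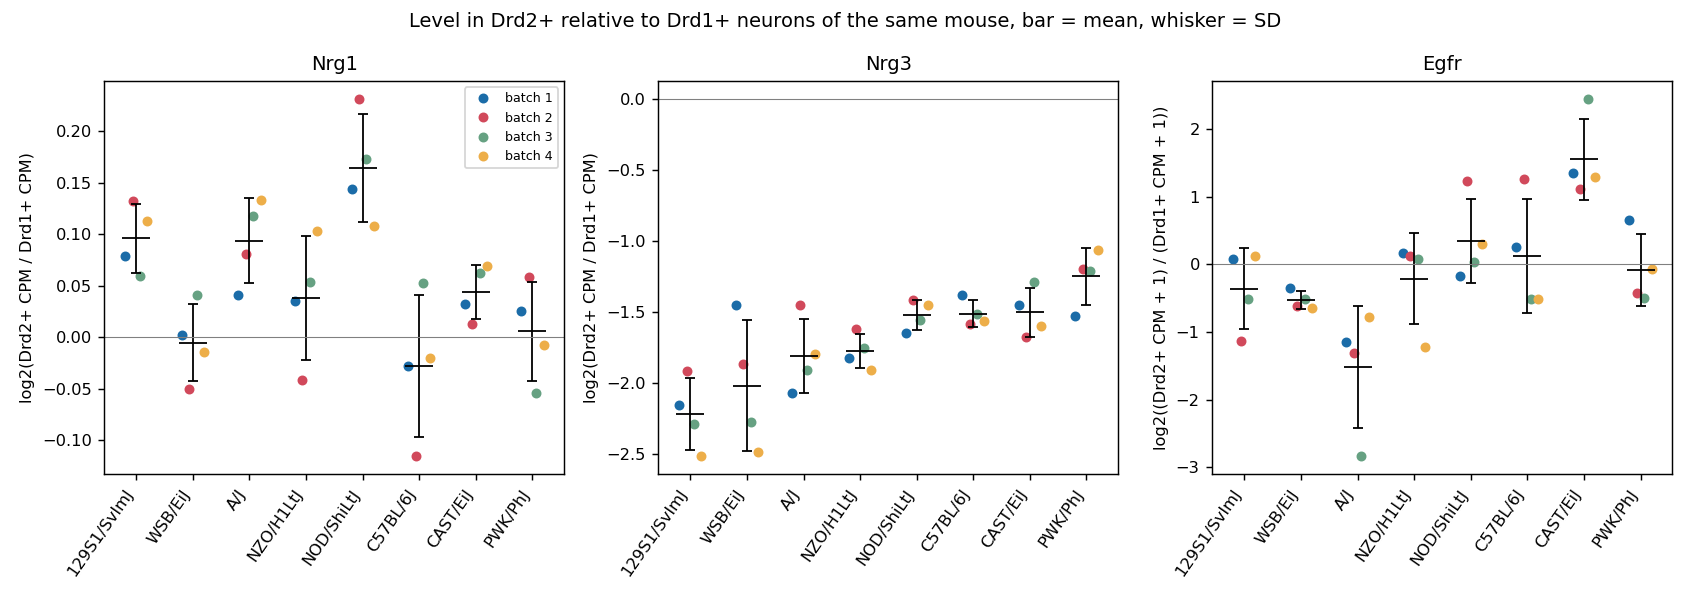
Log2 ratio, within each mouse, of the Drd2+ level to the Drd1+ level, by strain; each point is 1 mouse coloured by batch, bars are means and whiskers SD (n = 4), and 0 is equality. The panels show Nrg1, Nrg3 and Egfr, for Egfr with 1 CPM added to both levels. Every Nrg3 point is below 0, and the strain means of Nrg3 range from -2.22 in 129S1/SvImJ to -1.25 in PWK/PhJ.

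The wider pathway was read from lists of 41 genes: 8 other ErbB ligands, 4 shedding proteases, 10 adaptors and scaffolds, 12 kinases and effectors and 7 restraints on the receptors. Of these, 22 of 35 tested were called in Drd1+ neurons (61.7% of all genes), 25 of 34 in Drd2+ neurons (55.9%) and 3 of 21 in Drd1+ neuron_2 (17.3%). Among other cells the counts were 14 of 30 in oligodendrocytes (34.8% of all genes), 5 of 20 in macrophages (24.8%), 7 of 28 in astrocytes (21.5%), 1 of 20 in the endothelium (3.23%), 0 of 17 in Nxph1+ interneurons (1.53%) and 0 of 10 in the polydendrocyte/oligodendrocyte cluster (1.24%). The strain term has no direction. Their median F was 3.39 against 3.38 over all genes in Drd1+ neurons, 3.76 against 2.95 in Drd2+ neurons, 2.05 against 1.75 in oligodendrocytes and 1.12 against 1.42 in Drd1+ neuron_2. Among other ligands in Drd1+ neurons, Nrg4, a neuregulin that binds ErbB4, was 14.5 ± 1.78 CPM in NOD/ShiLtJ and 2.21 ± 0.77 CPM in 129S1/SvImJ (6.58-fold, adjusted p = 2.41e-12). Tgfa, an EGFR ligand, was 147 ± 12.6 CPM in C57BL/6J and 107 ± 15.6 CPM in PWK/PhJ (adjusted p = 0.00119), and Egf was 9.16 ± 2.49 CPM in NZO/H1LtJ and 3.95 ± 1.65 CPM in CAST/EiJ (adjusted p = 0.00773).

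Of the proteases in Drd1+ neurons, Adam19, a sheddase of neuregulins, was 2.00-fold higher in A/J than in PWK/PhJ (adjusted p = 3.02e-05), and Adam17, which sheds several EGFR ligands, 1.45-fold higher in PWK/PhJ than in CAST/EiJ (adjusted p = 0.000841). In oligodendrocytes the called scaffolds were Magi2 (1.38-fold between C57BL/6J and PWK/PhJ), Erbin, a partner of ErbB2 (1.36-fold between A/J and CAST/EiJ), and the docking protein gene Gab1 (1.38-fold between NZO/H1LtJ and WSB/EiJ). Among the effectors called in Drd2+ neurons, Yap1, a transcriptional co-activator, was at 21.9 ± 7.17 CPM in NZO/H1LtJ and 3.24 ± 1.18 CPM in CAST/EiJ (adjusted p = 1.72e-11). The phosphoinositide 3-kinase subunits Pik3ca, Pik3cb, Pik3r1 and Pik3r3, with Ptpn11 and Stat5b, spanned 1.32-fold to 1.49-fold. In astrocytes the restraints Cblb, a ubiquitin ligase for activated receptors, Lrig1 and Lrig2 were called; Cblb was 189 ± 6.18 CPM in PWK/PhJ and 75.5 ± 14.4 CPM in NZO/H1LtJ (adjusted p = 6.28e-07).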

How the data were processed

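Single nuclei of the striatum of 32 mice were profiled with 10x Genomics Multiome, in 4 batches of 8 pooled mice. The deposited matrices hold whole-number counts of UMIs per gene and barcode, made with bcl2fastq 2.20.0.422 and Cell Ranger ARC 2.0.0 and with the builds mm10 and GRCm38, per the submitters' processing notes; whether intronic reads and strand were used in counting is not given in the sources used here. Per the deposited description of the cell table, the authors assigned strains with Demuxlet, filtered on quality, marked doublets with DoubletFinder and named the clusters; only nuclei they kept were used, and no further doublet step was run. The authors' peak list is 1 list for the whole series, with no values per nucleus used here.

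Counts of the deposited matrices were summed per mouse and cluster (Python 3.11.15, numpy 2.4.6, pandas 2.3.3), for at least 10 nuclei. A cluster was tested where every strain kept at least 3 mice. The tests used edgeR 4.0.16 in R 4.3.3: filterByExpr by strain, TMM, robust quasi-likelihood fits of strain and batch, an F test of strain, contrasts of each strain with the other 7, and the interaction of strain and cluster with the mouse as a block. P-values were adjusted by Benjamini-Hochberg over all genes tested in a fit. The SE of a log2 difference was derived from its test, as the absolute difference divided by the square root of F. It is thus not a separate estimate of the spread. The fits were also run on simulated counts with known changes and a fixed dispersion. Those counts held no batch or mouse effect, so they do not bear on the blocking. Batch is a shared pool named by the labels and pairs 1 mouse of every strain, so it is in the main fits, and the fits without it are alternatives. DESeq2 1.42.0 was an alternative. Totals per mouse in the tested clusters ran from 20750 counts (polydendrocyte/oligodendrocytes) to 9416806 counts (Drd1+ neurons), so values of low genes in small clusters are the least precise. The genes and lists were chosen with earlier results of these data known. All 7 members are named; genes of the pathway lists are named where called in the cluster with the largest F of their list, apart from an item that is not reported here; likeness used genes of at least 20 CPM in 1 cluster.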

Additional observations from a re-analysis of the deposited data

Results flagged for a closer look

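Of 264 groups of 4 mice (a strain, for each member that passed the filter in a tested cluster), 16 held a mouse whose gap to the nearest of the others, as a share of the group's range, was above Dixon's 95% critical value for 4 mice; chance marks about 1 group in 20. In Drd2+ neurons it was the CAST/EiJ mouse of batch 3 for Egfr (0.838), at 10.3 CPM (13 counts) against 4.68 to 5.59 CPM. In oligodendrocytes the C57BL/6J mouse of batch 2 was high for Nrg1 (0.884; 51.1 against 33.1 to 35.2 CPM), and the PWK/PhJ mouse of batch 3 was high for Erbb3 (0.896; 115 against 85.4 to 88.5 CPM). There the NZO/H1LtJ mouse of batch 2 was low for Erbb3 (0.849; 112 against 132 to 135 CPM), and the A/J mouse of batch 3 was low for Erbb4 (0.879; 1849 against 2340.5 to 2408 CPM). In astrocytes the CAST/EiJ mouse of batch 2 was high for Egfr (0.886; 462 against 283 to 304 CPM). In macrophages the CAST/EiJ mouse of batch 1 was high for Erbb4 (0.894), at 1328 CPM against 0 to 140.2 CPM, the mouse on which the CAST/EiJ call there rested. Also in macrophages, Nrg1 was high in the NOD/ShiLtJ mouse of batch 1 (0.837; 25 counts) and in the PWK/PhJ mouse of batch 2 (0.925; 11 counts). In Drd1+ neuron_2 Nrg3 was high in the NZO/H1LtJ mouse of batch 4 (0.841; 3039 against 2205 to 2337 CPM) and in the PWK/PhJ mouse of batch 1 (0.881; 3559.85 against 2751 to 2847 CPM). In Nxph1+ interneurons Erbb4 was high in the 129S1/SvImJ mouse of batch 1 (0.895; 10991 against 5149.7 to 5766 CPM) and in the C57BL/6J mouse of batch 4 (0.899; 9615 against 7056 to 7314 CPM), and Nrg2 in the NZO/H1LtJ mouse of batch 2 (0.866; 263 against 148 to 164 CPM). The last were Nrg3 in the endothelium, high in the NZO/H1LtJ mouse of batch 3 (0.837; 1365 against 435 to 586 CPM), and Nrg2 in the polydendrocyte/oligodendrocyte cluster, high in the A/J mouse of batch 2 (0.915; 363 against 179 to 195 CPM).

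The strain differences of Nrg1 and Nrg3 differed between Drd1+ and Drd2+ neurons by the interaction test of edgeR. The adjusted p was 0.000291 for Nrg1, lost without batch 2 (0.0970) and without the mouse block (1), and 0.00847 for Nrg3, lost without batch 3 (0.268), without batch 4 (0.250) and without the mouse block (0.0922). The mean log2 ratio of Drd2+ over Drd1+ ran from -0.03 in C57BL/6J to 0.16 in NOD/ShiLtJ for Nrg1 and from -2.22 in 129S1/SvImJ to -1.25 in PWK/PhJ for Nrg3. Egfr was called too (adjusted p = 9.35e-06), with ratios from -1.52 in A/J to 1.55 in CAST/EiJ, but the few counts that make this ratio also let it pass the filter, so its call is a description.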

How the results depend on the processing

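With Egfr in Drd2+ neurons included, the strain term called 16 combinations of member and cluster, and 16 with RLE scaling, 21 with no filter on low counts, 17 with DESeq2, 14 without the batch block, 17 with at least 30 nuclei and 14 to 16 when a batch was left out. Single-strain contrasts, also with Egfr included, called 54, and 39 to 70 under the other settings. The interaction of strain and cluster called 3 members, among them Egfr, whose call is only a description. Without the replicate block (the mouse) the calls of Nrg1 and Nrg3 were lost and the 1 left was Egfr. Over all genes that setting called 69 in place of 631. Leaving out a batch gave 2 to 3 members, Egfr among them each time, and 421 to 488 genes. No result changed direction. Counted over single results and settings together, a call was lost 64 times for contrasts, 5 times for interactions and 6 times for strain terms. A call was gained 6 times for strain terms, once for Erbb4 in macrophages and otherwise in the endothelium. There Nrg3 (adjusted p = 0.173 as reported) reached 0.0440 by DESeq2, 4.49e-06 with no filter and 0.00365 without batch 4. Nrg1 there (0.281 as reported) reached 0.000814 with no filter, and Erbb4 (0.548) reached 0.0155 without batch 2. The absence of calls in the endothelium thus depended on the setting. Over all genes, the strain term called 161 in the endothelium (527 with no filter, 71 without the batch block, 63 to 138 with a batch left out), 61 in Nxph1+ interneurons (468 with no filter, 109 by DESeq2, 24 to 46 with a batch left out) and 26 in polydendrocyte/oligodendrocytes (221, 75, and 6 to 58). Without batch 2 it called 628 in place of 958 in Drd1+ neuron_2 and 1138 in place of 1767 in astrocytes. Sex was not tried as a term because the deposited cell table does not name it, and the setting of at least 30 nuclei was not run in Nxph1+ interneurons, endothelium and polydendrocyte/oligodendrocytes, where too few mice remained. Low counts limit Erbb2 everywhere and Egfr in projection neurons.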
